A study of Mus musculus with 24 samples.

Results

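The genes that encode the enzymes and carriers of glycolysis and of the pentose phosphate pathway were followed across mouse pancreatic ductal adenocarcinoma cells in which p53 was restored, expressed in mutant forms, or restored with and without the enzyme Pcyt2. The members are 31 gene symbols, chosen by name and found in each of 3 count tables, where they fill 32 of 55401 rows because Aldoa stands on a main row and a low second row. Poly(A) RNA was sequenced in 24 libraries of 11 groups. KPsh cells carry a doxycycline-inducible hairpin against Trp53, the gene of p53. They were kept off doxycycline for 10 days, which lifts the hairpin (3 libraries), or on doxycycline at 1 µg/ml, which silences Trp53 (3 libraries). KPnull cells, which lack p53, received a doxycycline-inducible construct for wild-type p53 (p53WT), p53 mutated in its first transactivation domain (TAD1m), in its second (TAD2m) or in both (TAD12m), or an empty vector, with 2 libraries each. The growth protocol gives doxycycline to the KPnull cells for 48 hours, so the vector libraries were taken as treated too, although the series text is ambiguous. In the third set, KPsh cells with a knockout guide against Pcyt2 (sgPcyt2), an enzyme of phosphatidylethanolamine synthesis, and the same knockout cells with a guide-resistant Pcyt2 cDNA (sgPcyt2+cDNA) were kept off or on doxycycline for 6 days, with 2 libraries each. That set holds no cells without the guide. In KPsh cells and in the third set, restored p53 always goes with removal of doxycycline, so the 2 cannot be told apart. The labels do not say that the libraries came from separate cultures, so p-values reflect how far these libraries scatter, and that scatter may be technical only.

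Glycolysis turns glucose into pyruvate in the cytosol, and lactate dehydrogenase and the monocarboxylate carriers turn the pyruvate into lactate and move it out of the cell. The pentose phosphate pathway branches off at glucose 6-phosphate: its oxidative arm makes NADPH and its non-oxidative arm exchanges sugars between ribose 5-phosphate and glycolysis. Pancreatic carcinoma cells are known for high glycolytic flux, and p53 is known in other systems to act on several of these steps.

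Libraries held 9393967 to 12983421 counts in KPsh cells, 13657592 to 19431250 in KPnull cells and 13801515 to 17127761 in the third set. Trp53 stood at 260, 252 and 263 CPM (counts scaled to library size) off doxycycline, against 21.7, 21.1 and 20.3 CPM on doxycycline in KPsh cells. In KPnull cells it lay between 525 and 686 CPM with any of the 4 p53 constructs and at 6.1 and 4.5 CPM with vector, and it was lower with TAD2m than with p53WT by 0.34 on the log2 scale (adjusted p = 0.0242). In the third set Trp53 reached only 42.1 and 41.6 CPM in sgPcyt2 cells off doxycycline and 97.2 and 86.8 CPM in sgPcyt2+cDNA cells off doxycycline, against 19.1 to 22.7 CPM in the 4 libraries on doxycycline. Of 7 ductal and epithelial markers, Krt8 and Krt18 stood at 1340 to 4900 CPM, and Krt19 and Cdh1 at 401 CPM or more. Epcam stood at no more than 1.38 CPM in any library. Krt7 was at no more than 2.37 CPM in the third set and Sox9 at no more than 1.99 CPM in KPnull cells. All 5 fibroblast markers stayed below 1 CPM in every library. The highest marker of another cell type was Cd68, at up to 9.63 CPM.

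By length, Gapdh (glyceraldehyde 3-phosphate dehydrogenase) was the highest member and Pkm (pyruvate kinase) the next in every group. Gapdh stood at 1360 ± 112 CPM per kb off doxycycline and 1550 ± 39.6 CPM per kb on doxycycline in KPsh cells (SD, n = 3 each). Pkm followed at 1090 ± 60.0 CPM per kb off doxycycline and 1100 ± 14.7 CPM per kb on doxycycline in the same cells. Slc16a3, Eno2 and Ldhb, which encode a lactate exporter, the neuronal enolase and the B subunit of lactate dehydrogenase, were at the foot of the order in KPsh cells, each below 0.3 CPM per kb. Together the members took 1.1% to 1.27% of counts in the KPsh and KPnull libraries and 1.04% to 1.18% in the third set on doxycycline, but 0.716% to 0.785% in its 4 libraries off doxycycline.

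The promoters of 4 members that the results turn on are printed here, since these members moved furthest, stood at 0 counts with vector, or marked the split between the 2 withdrawal experiments. Windows are from RefSeq on GRCm38.p6, reach from 250 bases before to 50 bases after the start of a transcript, and run 5′ to 3′ on the strand of the gene. All 31 symbols matched, with 49 windows. Capitals mark the letters ACGTG or GCGTG, the core bound by hypoxia-inducible factors (the first also lies in CACGTG, the E-box that Myc binds), on either strand, and the p53 half-site.
Slc16a1, chr3:104638414-104638713, plus strand: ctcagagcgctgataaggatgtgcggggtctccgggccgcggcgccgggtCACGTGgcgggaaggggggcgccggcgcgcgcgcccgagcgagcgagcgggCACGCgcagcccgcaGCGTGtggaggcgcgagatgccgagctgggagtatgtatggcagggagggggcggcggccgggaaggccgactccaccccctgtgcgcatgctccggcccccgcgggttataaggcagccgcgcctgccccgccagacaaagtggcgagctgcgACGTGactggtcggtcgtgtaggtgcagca
Ldha, chr7:46845554-46845853, plus strand: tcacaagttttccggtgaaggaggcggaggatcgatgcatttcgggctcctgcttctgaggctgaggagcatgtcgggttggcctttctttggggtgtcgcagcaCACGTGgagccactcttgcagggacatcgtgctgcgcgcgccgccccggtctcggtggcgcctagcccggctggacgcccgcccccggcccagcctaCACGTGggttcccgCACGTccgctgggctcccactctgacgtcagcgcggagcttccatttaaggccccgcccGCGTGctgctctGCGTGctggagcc
Ldhb, chr6:142507908-142508207, minus strand: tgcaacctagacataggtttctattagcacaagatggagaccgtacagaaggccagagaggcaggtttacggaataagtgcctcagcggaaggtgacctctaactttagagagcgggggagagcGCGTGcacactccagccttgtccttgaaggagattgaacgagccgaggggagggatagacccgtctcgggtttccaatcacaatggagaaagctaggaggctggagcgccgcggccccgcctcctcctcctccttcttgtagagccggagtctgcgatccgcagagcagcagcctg
G6pdx, chrX:74428831-74429130, minus strand: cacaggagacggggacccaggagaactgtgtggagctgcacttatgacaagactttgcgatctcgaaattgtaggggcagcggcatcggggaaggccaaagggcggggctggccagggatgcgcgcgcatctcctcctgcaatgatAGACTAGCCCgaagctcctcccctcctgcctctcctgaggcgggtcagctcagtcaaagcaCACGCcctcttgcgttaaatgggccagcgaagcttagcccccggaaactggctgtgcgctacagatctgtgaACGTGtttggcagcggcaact
The Slc16a1 window held 5 cores and the Ldha window 7, of which 2 and 4 were the overlapping reads of 1 and 2 palindromic CACGTG sites. The Ldhb window held 1 core and no CACGTG. The G6pdx window held 2 cores and 1 p53 half-site. Over all windows of the members, 37 of 49 (75.5%) held a core, against 43.8% of the 32851 promoter windows of the same length in the table. CACGTG was in 10.2% of the members' windows, against 7.15% of all, and the p53 half-site in 4.08%, against 8.36% of all. The members' windows were richer in CpG, with a median of 18 against 7, and each core contains a CpG. These matches describe letters and not sites in use.

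**Figure D1:**
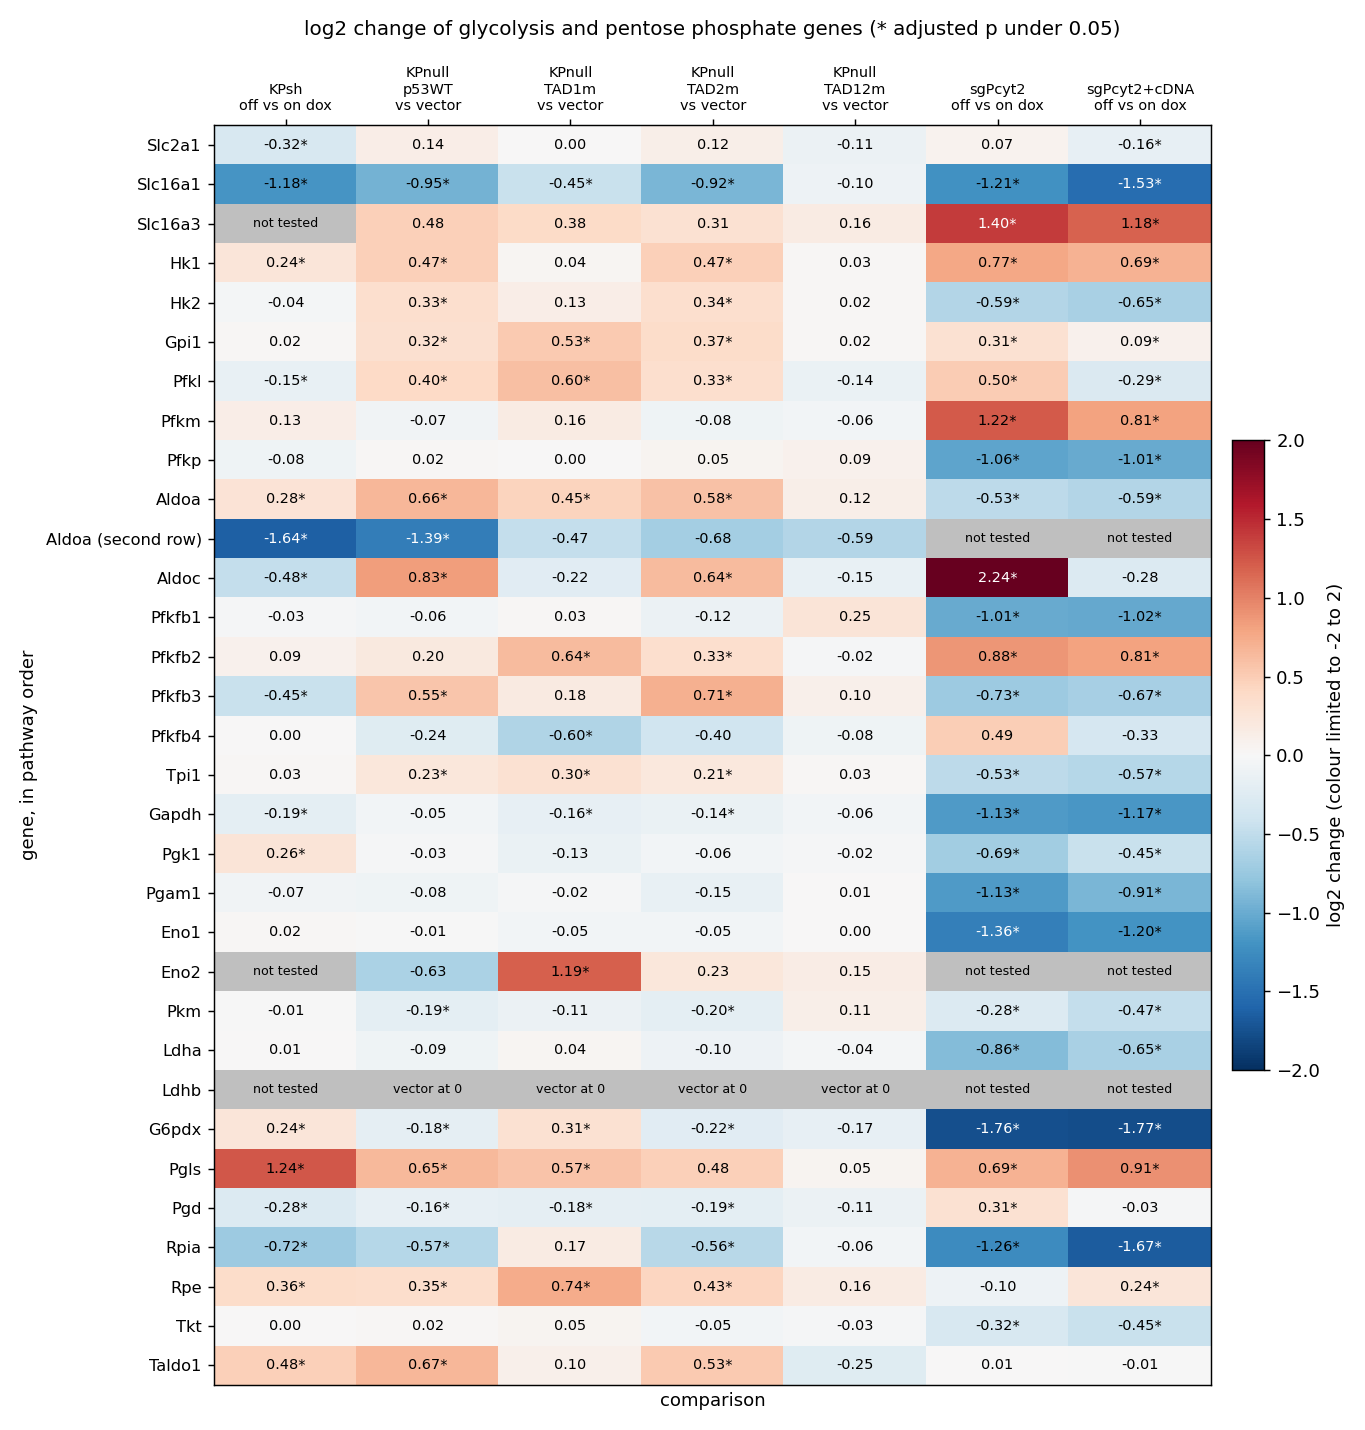
Log2 changes of the members in pathway order (rows) in the 7 comparisons with on-doxycycline or vector libraries (columns); red is higher and blue lower in the first-named group, and an asterisk marks an adjusted p under 0.05. Slc16a1 is blue with an asterisk in 6 columns and at -0.10 without one for TAD12m, and the tested rows from Tpi1 to Pkm are all blue in the 2 columns of the third set.

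After 10 days off doxycycline in KPsh cells, the lactate carrier Slc16a1 fell the most among members above 5 CPM. Rpia of the non-oxidative arm fell too, and Pgls and Taldo1 of the pentose phosphate pathway rose. Of 29 members tested, 16 were called at an adjusted p under 0.05 (edgeR's quasi-likelihood test with Benjamini-Hochberg adjustment over all genes), against 64.8% of the 13990 genes tested. These were 7 higher, against 33.1% of all genes, and 9 lower, against 31.7% of all genes, so the share of members called was near the background. The median log2 change was 0 for members and 0.01 over all genes, and the median size of change was 0.19 for members and 0.40 for all genes.

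Slc16a1, the carrier MCT1 that moves lactate with a proton, stood at 134, 117 and 109 CPM off doxycycline, against 269, 267 and 279 CPM on doxycycline. Every library off doxycycline lay far below every library on doxycycline. Its log2 change was -1.18 ± 0.06, with the standard error from the model (adjusted p = 8.05e-13). Slc2a1, the glucose carrier GLUT1, fell as well, by less, with a change of -0.32 ± 0.06 (adjusted p = 2.64e-05). As these are bulk libraries, fewer cells with a transcript and less of it per cell cannot be told apart. The proliferation gene Mki67 moved with these results, at 265 to 341 CPM off doxycycline and 719 to 723 CPM on doxycycline, and its part in them was not tested.

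In the pentose phosphate pathway of KPsh cells, 4 members rose and 2 fell of 7 tested, against 33.1% higher and 31.7% lower over all genes. Pgls, which opens the lactone made by glucose 6-phosphate dehydrogenase, stood at 66.2, 50.6 and 80.2 CPM off doxycycline, against 27.7, 32.1 and 24.4 CPM on doxycycline. The off-doxycycline libraries scattered widely but did not overlap the others, and the change was 1.24 ± 0.19 (adjusted p = 9.94e-04). Of the exon bases of Pgls over all its transcripts, 20.6% are shared with Fam129c on the same strand. Counts came from 1 transcript, and the overlap of its bases was not checked. Taldo1, the transaldolase, stood at 233, 207 and 223 CPM off doxycycline, against 160, 157 and 157 CPM on doxycycline (0.48 ± 0.06, adjusted p = 1.45e-07). Rpia, which interconverts ribulose and ribose 5-phosphate, stood at 26.6, 27.3 and 28.6 CPM off doxycycline, against 45.4, 44.0 and 46.3 CPM on doxycycline. Its libraries did not overlap, and the change was -0.72 ± 0.08 (adjusted p = 4.61e-08). Rpe, the epimerase that works on the same substrate, moved the other way, at 77.7, 63.1 and 54.3 CPM off doxycycline and 47.4, 50.7 and 53.1 CPM on doxycycline (0.36 ± 0.11, adjusted p = 0.00821). Its call was lost without the first on-doxycycline library (0.31, adjusted p = 0.0551). G6pdx, which feeds the oxidative arm, rose by 0.24 ± 0.06 and Pgd, which makes its second NADPH, fell by 0.28 (adjusted p = 6.75e-04 and 6.38e-05). The transketolase gene Tkt had a change of 0.00 ± 0.05 (adjusted p = 0.987).

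Along the trunk of glycolysis in KPsh cells, Pfkfb3, a maker of the phosphofructokinase activator fructose 2,6-bisphosphate, stood at 19.5, 22 and 20.4 CPM off doxycycline, against 26.3, 26.8 and 31 CPM on doxycycline. That fall, of -0.45 ± 0.10 (adjusted p = 3.06e-04), was the 1 call among 4 Pfkfb genes, while 64.8% of all genes were called. Aldoa, the main aldolase, rose by 0.28 ± 0.05 and Hk1, the first hexokinase, by 0.24 ± 0.05 (adjusted p = 8.52e-05 and 4.71e-04). Of 6 triose-phase members tested, Pgk1 rose by 0.26 ± 0.09 and Gapdh fell by 0.19, while Tpi1, Pgam1, Eno1 and Pkm had changes between -0.07 and 0.03 with no call. The Pgk1 libraries overlapped, and its call was lost without the first or the third library of either group (for the first off doxycycline, 0.15, adjusted p = 0.0504). The call of Gapdh was lost without the first library off doxycycline (-0.13, adjusted p = 0.0658). Ldha, the main lactate dehydrogenase subunit, had a change of 0.01 ± 0.05 (adjusted p = 0.938). The low second row of Aldoa fell by 1.64 at no more than 1.51 CPM. The calls of Aldoc (-0.48) and Pfkl (-0.15) were each lost in several alternatives. Eno2, Ldhb and Slc16a3 were too low to test.

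**Figure D2:**
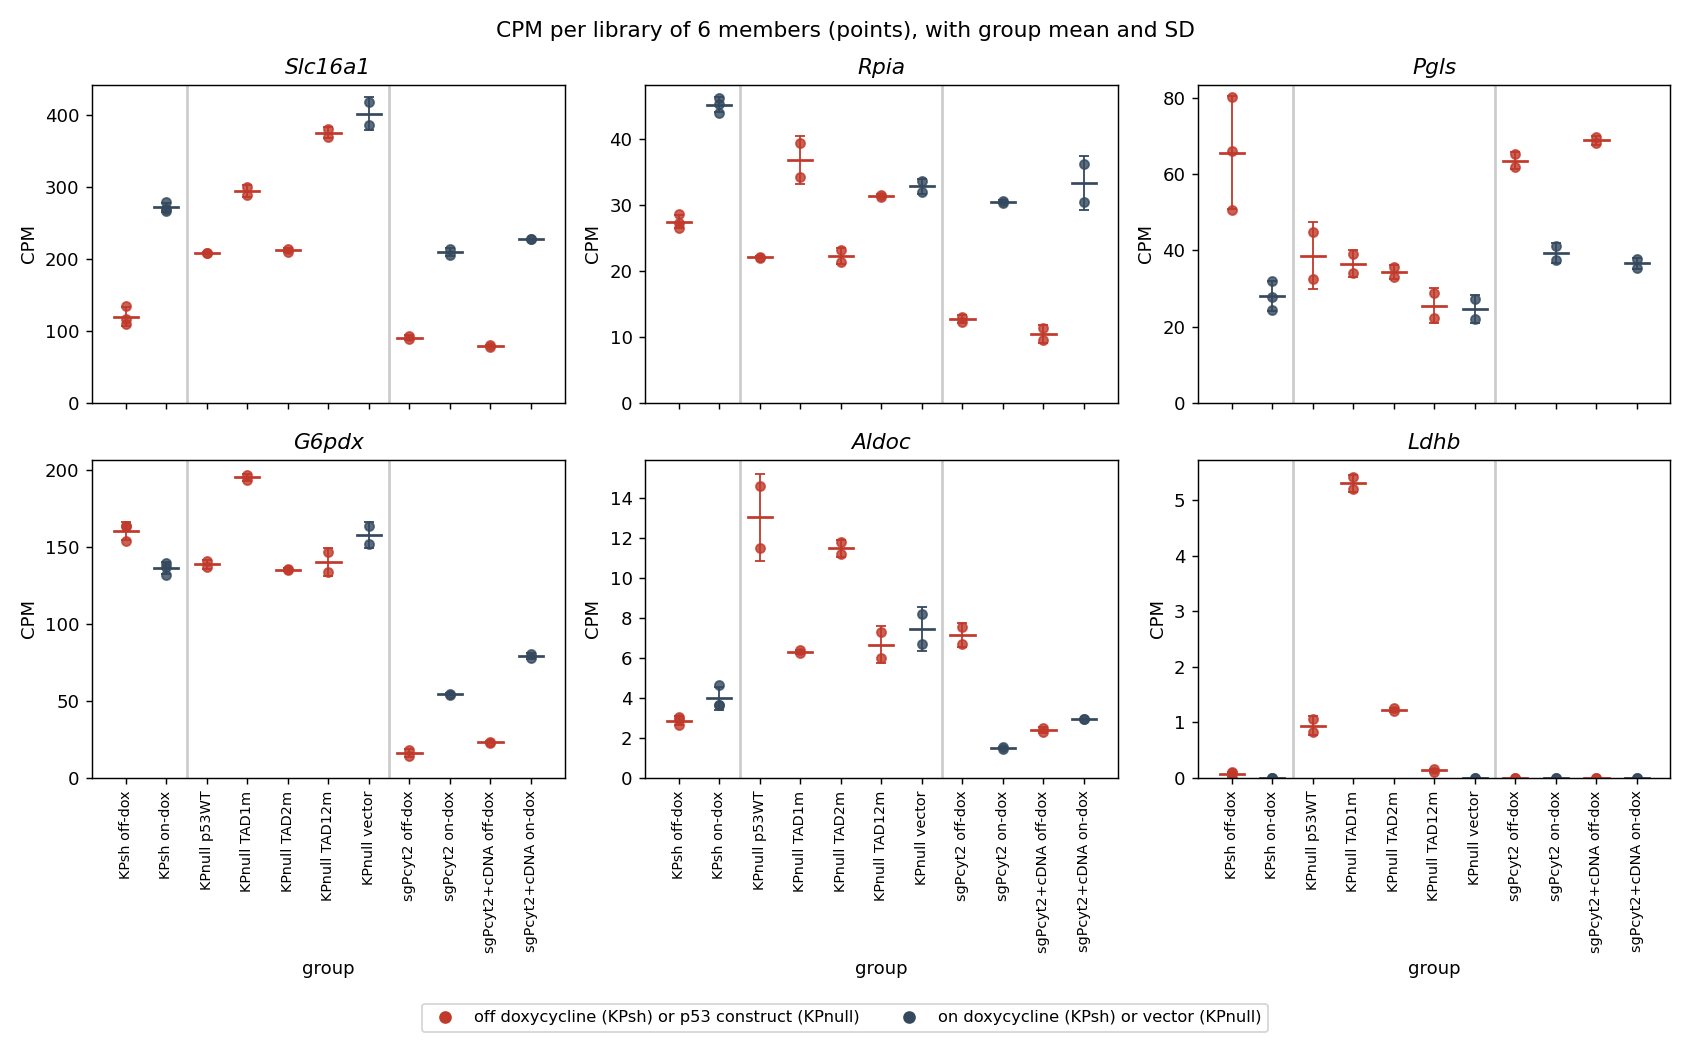
CPM of 6 members in every library of the 11 groups (points), with the group mean (bar) and SD (whisker), on linear axes from 0. Slc16a1 and Rpia were lower off doxycycline and with p53WT or TAD2m, Ldhb was at 0 with vector and highest with TAD1m, and G6pdx fell off doxycycline in the third set while it rose in KPsh cells.

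Wild-type p53 expressed for 48 hours in KPnull cells lowered Slc16a1 and Rpia too and raised several hexose-phase genes, among them Hk1, Hk2, Gpi1 and Aldoa. Of 32 members, 18 were called, against 50.6% of 15075 genes tested: 12 higher, against 25.5% of all genes, and 6 lower, against 25.1% of all genes. In the hexose phase 6 of 9 rows rose and 1, the low second row of Aldoa, fell. The median change of the members was 0.02, also with Ldhb set to its lower bound, and that of all genes was -0.01.

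Slc16a1 stood at 208 and 209 CPM with p53WT, against 418 and 386 CPM with vector (-0.95 ± 0.06, adjusted p = 6.15e-10). The p53WT libraries were almost the same and lay far below the vector libraries. Aldoa stood at 1120 and 1050 CPM with p53WT, against 651 and 720 CPM with vector (0.66 ± 0.07, adjusted p = 8.91e-07). Aldoc, the brain-type aldolase, stood at 14.6 and 11.5 CPM with p53WT, against 6.69 and 8.22 CPM with vector (0.83 ± 0.15, adjusted p = 1.82e-04). Both aldolase genes were thus higher in both p53WT libraries than in either vector library. Taldo1 stood at 205 and 199 CPM with p53WT, against 123 and 130 CPM with vector (0.67 ± 0.07, adjusted p = 5.06e-07). Rpia stood at 22.2 and 22 CPM with p53WT, against 33.7 and 32 CPM with vector (-0.57 ± 0.09, adjusted p = 5.09e-05). None of these libraries overlapped between the groups. Pgls stood at 44.8 and 32.4 CPM with p53WT, against 22.1 and 27.3 CPM with vector (0.65 ± 0.19, adjusted p = 0.0184). That call was lost without the first p53WT library (0.40, adjusted p = 0.0833) and without the first vector library (0.50, adjusted p = 0.111). This table counts a different Pgls transcript than the KPsh table.

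Among the remaining calls with p53WT, Hk1 rose by 0.47 ± 0.07, Hk2, the hexokinase typical of tumours, by 0.33 ± 0.05, Gpi1, which turns glucose 6-phosphate into fructose 6-phosphate, by 0.32 ± 0.05, and Pfkl, the liver-type phosphofructokinase, by 0.40 ± 0.11 (adjusted p between 3.54e-05 and 0.00850). Pfkfb3 rose by 0.55 ± 0.09, Rpe by 0.35 ± 0.08 and Tpi1 by 0.23 ± 0.05. Pkm fell by 0.19, G6pdx by 0.18 and Pgd by 0.16. The calls of Pfkl, G6pdx, Pgd and the second row of Aldoa (-1.39, at no more than 1.54 CPM) were each lost in at least 1 alternative, for Pfkl without the first p53WT library (0.36, adjusted p = 0.0654). Gapdh, Pgk1, Pgam1, Eno1 and Ldha had changes between -0.09 and -0.01 and none was called. Mki67 stood at 347 and 377 CPM with p53WT and 899 and 878 CPM with vector, and its part in these changes was not tested.

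The p53 form with a mutated second domain lowered Slc16a1 and Rpia and raised Pfkfb3, Taldo1 and both aldolase genes. Of 32 members 18 were called for TAD2m against vector (49.1% of all genes), 12 higher (24.9% of all genes) and 6 lower (24.2% of all genes), with a median of 0.09, also with Ldhb at its bound. Slc16a1 stood at 210 and 214 CPM with TAD2m, against 418 and 386 CPM with vector (-0.92 ± 0.06, adjusted p = 9.05e-10). Pfkfb3 stood at 49.1 and 49.3 CPM with TAD2m, against 30.4 and 29.7 CPM with vector (0.71 ± 0.09, adjusted p = 5.05e-06). These 2 genes moved without any overlap of libraries. Aldoa stood at 1040 and 1010 CPM with TAD2m, against 651 and 720 CPM with vector (0.58 ± 0.07, adjusted p = 3.96e-06). Aldoc stood at 11.2 and 11.8 CPM with TAD2m, against 6.69 and 8.22 CPM with vector (0.64 ± 0.15, adjusted p = 0.00239). The aldolase genes were again higher in both libraries with the construct. Taldo1 stood at 182 and 183 CPM with TAD2m, against 123 and 130 CPM with vector (0.53 ± 0.07, adjusted p = 8.58e-06). Rpia stood at 21.4 and 23.2 CPM with TAD2m, against 33.7 and 32 CPM with vector (-0.56 ± 0.09, adjusted p = 6.98e-05).

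Set directly against p53WT, TAD2m gave 0 calls among 32 members, while 0.285% of all genes were called. In this comparison 1 member had an unadjusted p under 0.05, the smallest adjusted p was 0.815, and DESeq2 also called 0. The 2 members with the highest counts were Pkm, at 2540 and 2490 CPM with TAD2m and 2530 and 2540 CPM with p53WT, and Gapdh, at 2190 and 2090 CPM with TAD2m and 2290 and 2260 CPM with p53WT. Their changes were -0.01 ± 0.05 and -0.09 ± 0.05 (adjusted p = 0.989 and 0.880). A missed call does not show that the 2 forms act alike.

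With the first domain mutated, part of the response was kept, part was lost and part was larger. Of 32 members 14 were called for TAD1m against vector (36.4% of all genes), 10 higher (19% of all genes) and 4 lower (17.5% of all genes), with a median of 0.08, also with Ldhb at its bound. Without the second TAD1m library 9 were called. Rpe stood at 105 and 91.7 CPM with TAD1m, against 61.1 and 56.6 CPM with vector (0.74 ± 0.07, adjusted p = 8.75e-07). Kansl1l, on the opposite strand, overlaps 17.9% of the exon bases of Rpe over all its transcripts, and reads of both strands were counted. Pfkfb2, the heart-type Pfkfb enzyme, stood at 25.5 and 25.8 CPM with TAD1m, against 16.9 and 16 CPM with vector (0.64 ± 0.09, adjusted p = 4.75e-05). Of the exon bases of Pfkfb2 over all its transcripts, 19.5% overlap Gm29427 on the same strand or Yod1 on the opposite strand. Pfkl stood at 175 and 176 CPM with TAD1m, against 109 and 123 CPM with vector (0.60 ± 0.11, adjusted p = 0.00117). All 3 genes were higher in both TAD1m libraries. Gpi1 stood at 486 and 507 CPM with TAD1m, against 340 and 347 CPM with vector (0.53 ± 0.05, adjusted p = 5.99e-07). Aldoa stood at 919 and 950 CPM with TAD1m, against 651 and 720 CPM with vector (0.45 ± 0.07, adjusted p = 1.03e-04). Pgls stood at 34.1 and 39.0 CPM with TAD1m, against 22.1 and 27.3 CPM with vector (0.57 ± 0.19, adjusted p = 0.0440), a call lost without either TAD1m library (0.66 and 0.46) and without the first vector library (0.41). Slc16a1 fell by 0.45 (adjusted p = 7.16e-06). Eno2 rose by 1.19 at 0.838 and 1.27 CPM, and its call was lost in alternatives.

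Against p53WT, TAD1m differed in 16 of 32 members (39.1% of all genes), 10 higher (20.4% of all genes) and 6 lower (18.7% of all genes). Slc16a1 was higher with TAD1m, at 300 and 289 CPM, than with p53WT, at 208 and 209 CPM (0.50 ± 0.06, adjusted p = 2.24e-06). Rpia stood at 39.4 and 34.3 CPM with TAD1m, against 22.2 and 22 CPM with p53WT (0.74 ± 0.09, adjusted p = 5.61e-06). These 2 genes, lowered by p53WT, were less low or not low with TAD1m, and Rpia with TAD1m was not called against vector (0.17 ± 0.08, adjusted p = 0.142). Taldo1 stood at 137 and 135 CPM with TAD1m, against 205 and 199 CPM with p53WT (-0.57 ± 0.07, adjusted p = 5.49e-06). Aldoc stood at 6.39 and 6.25 CPM with TAD1m, against 14.6 and 11.5 CPM with p53WT (-1.05 ± 0.15, adjusted p = 4.03e-05). The libraries did not overlap for either gene. Hk1 was lower by 0.43 as well (adjusted p = 1.24e-04). In the other direction G6pdx was higher with TAD1m by 0.49 ± 0.06, Rpe by 0.39 ± 0.07 and Pfkfb2 by 0.44 ± 0.09 (adjusted p = 6.53e-06, 4.83e-04 and 0.00120). The calls of Aldoa, Eno2, Gpi1, Hk2, Ldha, Pfkfb3 and Pfkm in this comparison were each lost in at least 1 alternative. Mki67 stood at 795 and 781 CPM with TAD1m and 347 and 377 CPM with p53WT, and its part was not tested.

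Ldhb was chosen for description after its values were seen, because it was the one member at 0 counts in both vector libraries. It had 93.5 and 82.0 counts with TAD1m, 17 and 12 with p53WT, 18 and 16 with TAD2m, and 3.0 and 2.0 with TAD12m. Set against a floor of 3 counts over both vector libraries, it was at least 61.6-fold higher with TAD1m, at least 11-fold higher with p53WT and at least 14.2-fold higher with TAD2m. TAD1m and p53WT differed from each other by 2.48 ± 0.23 (adjusted p = 5.70e-07), with 5.41 and 5.20 CPM with TAD1m against 1.06 and 0.820 CPM with p53WT. Even so Ldha carried 99.5% of the summed per-length counts of Ldha and Ldhb with TAD1m and more in every other group. In the third set Ldhb had 0 counts in all 8 libraries, and in KPsh cells it had 2 counts in all off doxycycline and 0 on doxycycline.

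With both domains mutated, 0 of 32 members were called against vector, while 3.85% of all genes were. An unadjusted p under 0.05 was found for 4 members, the smallest adjusted p was 0.0665 for Taldo1 (-0.25 ± 0.07), and DESeq2 called 0. Pkm stood at 2960 and 3240 CPM with TAD12m and 2840 and 2910 CPM with vector (0.11 ± 0.05, adjusted p = 0.447). Gapdh stood at 2210 and 2320 CPM with TAD12m and 2270 and 2450 CPM with vector (-0.06 ± 0.05, adjusted p = 0.801). Without the second TAD12m library 2 were called, Pfkl (-0.34) and Taldo1 (-0.37). Slc16a1, at 381 and 370 CPM with TAD12m and 418 and 386 CPM with vector, had a change of -0.10 ± 0.05 (adjusted p = 0.486). Trp53 itself stood at 552 and 580 CPM in the same TAD12m libraries.

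In the third set, withdrawal of doxycycline for 6 days lowered the trunk of glycolysis from Tpi1 to Ldha, with the Pcyt2 cDNA and without it. In sgPcyt2 cells 25 of 29 members tested were called off against on doxycycline (76.3% of the 14916 genes tested), 9 higher (39.2% of all genes) and 16 lower (37.1% of all genes). In sgPcyt2+cDNA cells 25 of 29 were called (73.5% of all genes), 7 higher (37.3% of all genes) and 18 lower (36.3% of all genes). The median change was -0.32 in sgPcyt2 cells and -0.45 in sgPcyt2+cDNA cells, against 0.02 over all genes in both. All 6 triose-phase members tested fell in both, and Ldha fell in both.

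Eno1, the main enolase, stood at 510 and 557 CPM off doxycycline in sgPcyt2 cells, against 1350 and 1400 CPM on doxycycline (-1.36 ± 0.04, adjusted p = 2.25e-31). With the cDNA it stood at 688 and 655 CPM off doxycycline, against 1520 and 1550 CPM on doxycycline (-1.20 ± 0.04, adjusted p = 3.20e-29). The libraries off doxycycline were thus all below those on doxycycline. Gapdh stood at 1040 and 1120 CPM off doxycycline in sgPcyt2 cells, against 2300 and 2460 CPM on doxycycline (-1.13 ± 0.04, adjusted p = 1.19e-27). With the cDNA it stood at 1260 and 1240 CPM off doxycycline, against 2880 and 2750 CPM on doxycycline (-1.17 ± 0.04, adjusted p = 3.49e-28). Gapdh is often used as a reference gene, and here it differed more than most members. Pgam1, the phosphoglycerate mutase, fell by 1.13 in sgPcyt2 cells and 0.91 with the cDNA, Ldha by 0.86 and 0.65, Pgk1 by 0.69 and 0.45, Tpi1 by 0.53 and 0.57, and Pkm by 0.28 and 0.47, in the same order of cells.

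G6pdx, the entry enzyme of the oxidative arm, fell the furthest of the members. It stood at 14.2 and 17.9 CPM off doxycycline in sgPcyt2 cells, against 53.9 and 54.8 CPM on doxycycline (-1.76 ± 0.08, adjusted p = 6.30e-24). With the cDNA it stood at 22.9 and 23.6 CPM off doxycycline, against 80.7 and 77.7 CPM on doxycycline (-1.77 ± 0.07, adjusted p = 3.08e-26). All 8 libraries kept this order, and 13.6% of its exon bases over all transcripts overlap Ikbkg on the opposite strand. Rpia stood at 12.3 and 13.1 CPM off doxycycline in sgPcyt2 cells, against 30.7 and 30.4 CPM on doxycycline (-1.26 ± 0.10, adjusted p = 3.87e-15). With the cDNA it stood at 11.4 and 9.49 CPM off doxycycline, against 36.3 and 30.5 CPM on doxycycline (-1.67 ± 0.10, adjusted p = 3.97e-19). In the same oxidative arm as G6pdx, Pgls rose by 0.69 ± 0.07 in sgPcyt2 cells and by 0.91 ± 0.06 with the cDNA. Pgd rose by 0.31 in sgPcyt2 cells and was not called with the cDNA (-0.03). Tkt fell by 0.32 in sgPcyt2 cells and 0.45 with the cDNA, and Taldo1 had changes of 0.01 and -0.01 with no call.

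Slc16a1 fell here too. It stood at 93.0 and 88.8 CPM off doxycycline in sgPcyt2 cells, against 206 and 214 CPM on doxycycline (-1.21 ± 0.05, adjusted p = 1.83e-27). With the cDNA it stood at 78.0 and 80.4 CPM off doxycycline, against 228 and 228 CPM on doxycycline (-1.53 ± 0.05, adjusted p = 2.49e-31). The groups did not overlap. Slc16a3, at most 1.37 CPM, rose by 1.40 in sgPcyt2 cells and 1.18 with the cDNA, calls lost in alternatives.

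The hexose phase was mixed. Of 8 members tested there, 5 rose and 3 fell in sgPcyt2 cells (39.2% and 37.1% of all genes), with a median of 0.41. With the cDNA 3 rose and 4 fell (37.3% and 36.3% of all genes), with a median of -0.29. Pfkm, the muscle-type phosphofructokinase, stood at 164 and 159 CPM off doxycycline in sgPcyt2 cells, against 67.2 and 72.2 CPM on doxycycline (1.22 ± 0.05, adjusted p = 9.18e-26). In sgPcyt2+cDNA cells it rose by 0.81 ± 0.05 (adjusted p = 2.07e-19). Pfkp, the platelet-type phosphofructokinase, stood at 6.10 and 5.69 CPM off doxycycline in sgPcyt2 cells, against 12.9 and 11.8 CPM on doxycycline, and fell by 1.06 there and by 1.01 with the cDNA (adjusted p = 5.23e-09 and 1.06e-08). Hk1 rose by 0.77 ± 0.04 in sgPcyt2 cells and by 0.69 ± 0.04 with the cDNA, while Hk2 fell by 0.59 and 0.65 and Aldoa by 0.53 and 0.59. Among the Pfkfb genes Pfkfb2 rose in both (0.88 and 0.81), and Pfkfb1 and Pfkfb3 fell in both. Pfkfb1, the liver-type enzyme, stood at 5.72 and 5.82 CPM off doxycycline with the cDNA, against 11.4 and 12 CPM on doxycycline (-1.02 ± 0.14, adjusted p = 1.91e-08).

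The unedited KPsh cells, after 10 days and in another table, gave -0.19 for Gapdh, 0.02 for Eno1, 0.01 for Ldha and 0.24 for G6pdx on the same off-over-on scale. Times, tables and starting levels differ along with the edit, so these cannot be told apart and the difference was not tested. On doxycycline Eno1 stood at 959 ± 38.7 CPM and G6pdx at 136 ± 3.93 CPM in KPsh cells (SD, n = 3). Every third-set library on doxycycline was above this for Eno1 and below it for G6pdx. Trp53 off doxycycline was 252 to 263 CPM in KPsh cells and 41.6 to 97.2 CPM in the third set. Krt7 was 205 to 1050 CPM in KPsh cells and 0.19 to 2.37 CPM in the third set. Other measures moved with the withdrawal in the third set. The share of mitochondrial counts was 3.31% to 3.51% off doxycycline and 1.86% to 2.00% on doxycycline, against 1.95% to 2.41% off and 1.80% to 1.98% on in KPsh cells. Mki67 was 40.5 to 76.4 CPM off doxycycline and 546 to 682 CPM on doxycycline in the third set. Their part in the members' changes was not tested. Leaving the members out of the library sizes lost no call in these comparisons.

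**Figure D3:**
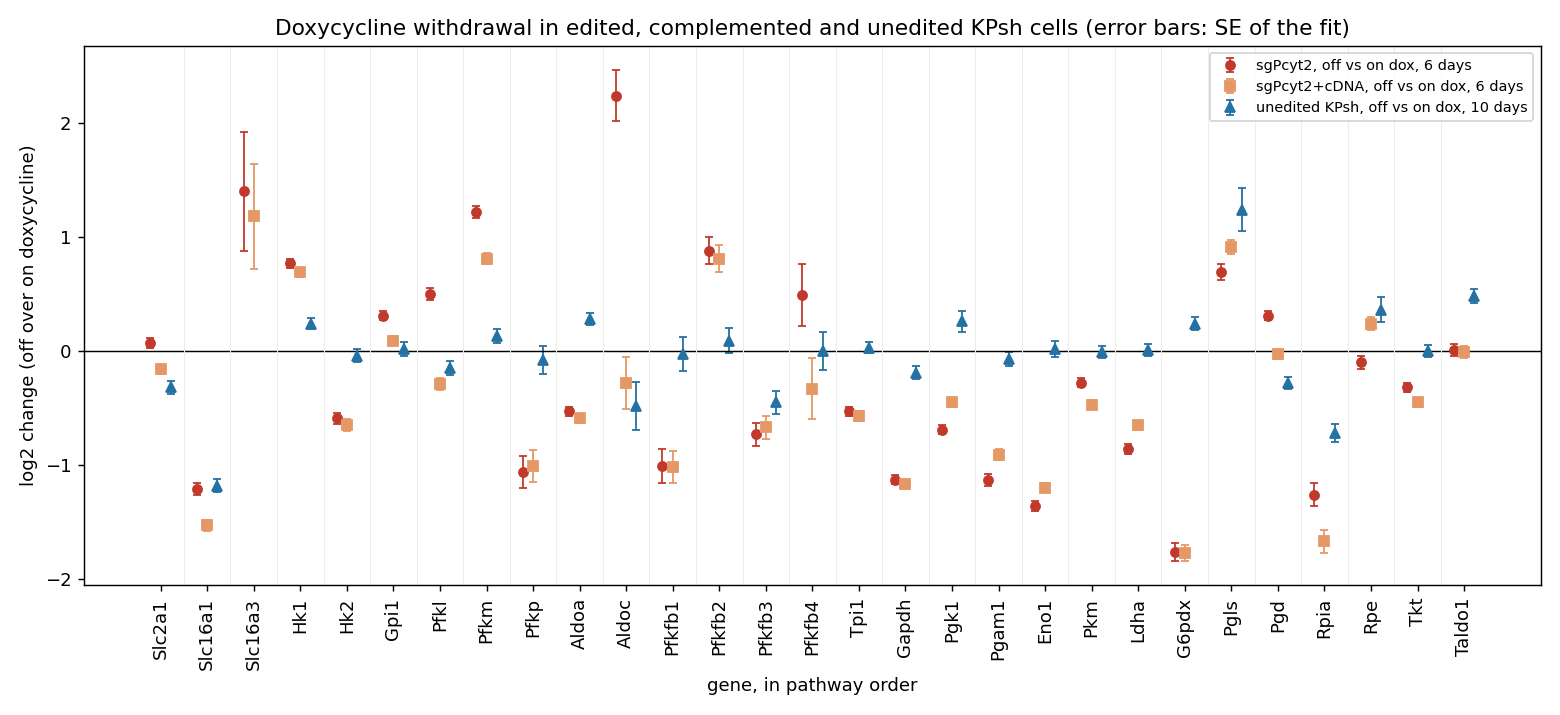
Log2 change off over on doxycycline (vertical axis, with SE of the fit) of 29 members in pathway order, in sgPcyt2 cells (circles), sgPcyt2+cDNA cells (squares) and unedited KPsh cells (triangles). From Tpi1 to Ldha the circles and squares lie below 0, down to -1.36 for Eno1, while the triangles lie between -0.19 and 0.26, and Slc16a1 and Rpia are below 0 in all 3.

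Fewer members were called between sgPcyt2 and sgPcyt2+cDNA cells than on withdrawal of doxycycline, and fewer of all genes were too. Pcyt2 stood at 28.6 and 28.4 CPM in sgPcyt2 cells and 2640 and 2590 CPM in sgPcyt2+cDNA cells on doxycycline, so the complemented cells express it far above the 105 to 114 CPM of unedited KPsh cells on doxycycline, and both sides of this comparison differ from unedited cells. On doxycycline 14 of 29 members were called in sgPcyt2 against sgPcyt2+cDNA cells (18.4% of all genes), 0 higher (8.40% of all genes) and 14 lower (10.0% of all genes). By edgeR 18 had an unadjusted p under 0.05, DESeq2 called 0 higher and 11 lower, and DESeq2's size factors in edgeR gave 1 higher and 12 lower. Off doxycycline 15 were called (33.1% of all genes), 5 higher (16.3% of all genes) and 10 lower (16.8% of all genes). The median change was -0.16 on doxycycline and -0.05 off it.

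Pgk1, the phosphoglycerate kinase, stood at 529 and 554 CPM in sgPcyt2 cells on doxycycline, against 740 and 748 CPM with the cDNA (-0.46 ± 0.04, adjusted p = 3.14e-12). Off doxycycline it stood at 316 and 354 CPM in sgPcyt2 cells, against 546 and 546 CPM with the cDNA (-0.71 ± 0.04, adjusted p = 2.48e-18). Pgk1 was lower without the cDNA in both states. G6pdx was lower too, by 0.54 both on and off doxycycline (adjusted p = 2.78e-09 and 1.08e-05), from the library values given above. On doxycycline Pgd stood at 234 and 248 CPM in sgPcyt2 cells, against 307 and 307 CPM with the cDNA (-0.35 ± 0.04, adjusted p = 2.57e-09). Pfkm stood at 67.2 and 72.2 CPM in sgPcyt2 cells on doxycycline, against 82.4 and 87.8 CPM with the cDNA (-0.29 ± 0.05, adjusted p = 5.54e-05). No libraries of these genes overlapped. Off doxycycline Pfkl stood at 135 and 128 CPM in sgPcyt2 cells, against 84.0 and 89.6 CPM with the cDNA (0.60 ± 0.05, adjusted p = 1.43e-13), and Eno1 was lower by 0.33 (adjusted p = 6.73e-09). Trp53 was also lower off doxycycline in sgPcyt2 cells, by 1.13 (adjusted p = 5.93e-19), and its part in these differences was not tested.

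The response to withdrawal differed between sgPcyt2 and sgPcyt2+cDNA cells for 14 of 29 members by the interaction, the change in sgPcyt2 cells minus that with the cDNA (25.2% of all genes). Of these 9 were positive (12.8% of all genes) and 5 negative (12.4% of all genes). Aldoc stood at 7.57 and 6.71 CPM off doxycycline in sgPcyt2 cells, against 1.45 and 1.53 CPM on doxycycline, and at 2.29 and 2.52 CPM off and 2.94 and 2.95 CPM on with the cDNA. It rose by 2.24 in sgPcyt2 cells and was not called with the cDNA (-0.28 ± 0.23), and the interaction was 2.52 ± 0.32 (adjusted p = 2.17e-08). Pfkl, at 135 and 128 CPM off and 92.6 and 92.9 CPM on in sgPcyt2 cells, rose by 0.50, while with the cDNA, at 84.0 and 89.6 CPM off and 104 and 108 CPM on, it fell by 0.29 (interaction 0.79 ± 0.07, adjusted p = 2.16e-12). Pfkm rose in both cells, by 0.41 ± 0.07 more in sgPcyt2 cells (adjusted p = 1.41e-05). The interaction of Rpia, 0.40 ± 0.15 (adjusted p = 0.0452), was lost in alternatives. Trp53 had an interaction of -1.21 ± 0.12 (adjusted p = 9.66e-12), and what part of the members' interactions goes with it was not tested.

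Isozyme shares of summed CPM per kb are given with no test. The sums hold only the members of each step, so genes such as Hkdc1 are left out. Hk1 was the larger of the 2 hexokinase members in all 11 groups, at 53.5% to 92.1%. Hk2 made up 22.4% ± 0.409 of hexokinase off doxycycline and 26.1% ± 0.883 on doxycycline in KPsh cells (SD, n = 3 each), and between 42.6% and 46.5% in KPnull groups. In sgPcyt2 cells it was 9.49% ± 0.0991 off doxycycline and 21.2% ± 0.0854 on doxycycline, and with the cDNA 7.90% ± 0.0546 off and 17.8% ± 0.480 on (SD, n = 2 each). Pfkm made up 60.2% ± 0.492 of phosphofructokinase off doxycycline and 45.2% ± 1.47 on doxycycline in sgPcyt2 cells, and 67.1% ± 0.0678 off and 47.4% ± 0.222 on with the cDNA. Among the Pfkfb genes, Pfkfb2 made up 39.9% ± 3.56 off and 17.5% ± 1.07 on in sgPcyt2 cells. In KPnull cells Pfkfb3 led with 52.3% ± 4.11 for p53WT and 54.7% ± 0.724 for TAD2m, against 43.6% ± 0.249 for vector. Aldoa made up at least 99.0% of aldolase, and Slc16a1 at least 98.1% of the 2 lactate carriers, in every group.

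**Figure D4:**
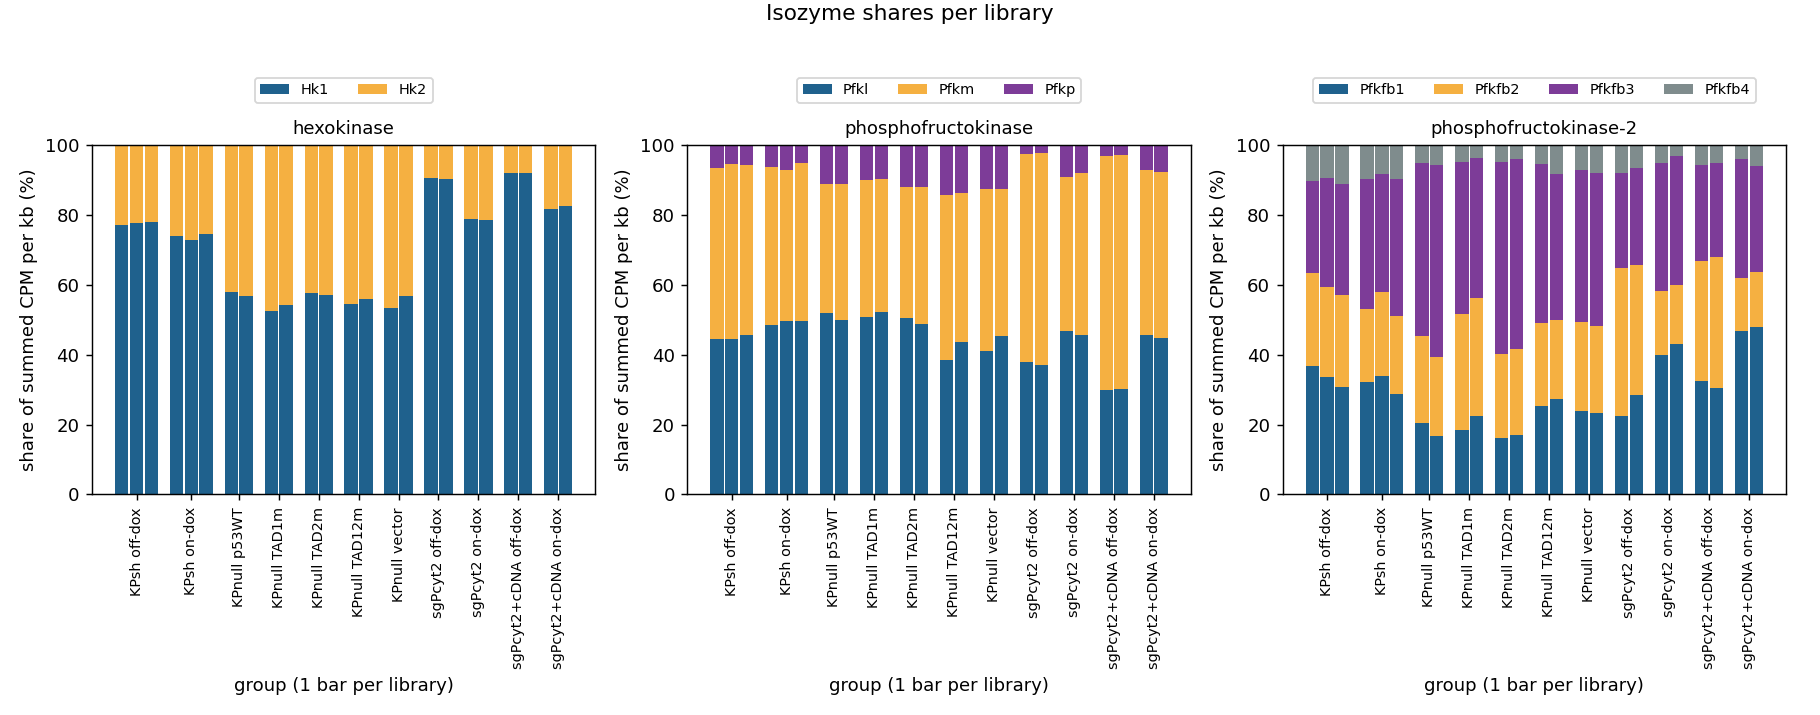
Shares of each isozyme in the summed CPM per kb of the hexokinase, phosphofructokinase and Pfkfb members (vertical axis, percent, with 1 bar per library, by group). Within the third set the Hk2 and Pfkp segments are thinner off than on doxycycline, and Hk2 averages 9.49% off and 21.2% on in sgPcyt2 cells; Pfkp was counted on different transcripts in the 3 tables, so its shares compare only within a set.

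Genes around the pathway were read from lists of named genes. Among 34 other genes of the pathway tested in KPsh cells, 10 rose and 13 fell, close to the 33.1% and 31.7% over all genes. Hkdc1, a hexokinase-domain gene, fell by 1.55 (adjusted p = 4.94e-12). Ldhd, the D-lactate dehydrogenase, rose by 1.32 (adjusted p = 4.89e-05). With p53WT 12 of 39 rose and 11 fell (25.5% and 25.1% of all genes), with Ldhd at 32.7 ± 1.26 CPM against 13.6 ± 0.180 CPM with vector (1.27 ± 0.09, adjusted p = 6.67e-09), Pdk2, a kinase that turns off pyruvate dehydrogenase, up by 1.11 and Pgm2l1 down by 1.34. With TAD2m 14 rose and 11 fell (24.9% and 24.2% of all genes), with Ldhd up by 1.20, Pdk2 up by 1.07 and Pgm2l1 down by 0.88. With TAD1m 9 rose and 14 fell (19% and 17.5% of all genes), with Eno3 at -1.13, Gpd1 at -0.91 and Pdk1 at 0.87, and Ldhd was not called against vector (0.03 ± 0.10) but was lower than with p53WT by 1.24 (adjusted p = 2.05e-08). With TAD12m 2 fell, Bpgm (-0.31) and Pklr (-0.24), while 3.85% of all genes were called. In sgPcyt2 cells 20 of 35 rose and 9 fell off doxycycline (39.2% and 37.1% of all genes), with Pdk2 at 34.2 ± 1.73 CPM off and 0.985 ± 0.528 CPM on doxycycline (5.06 ± 0.17, adjusted p = 3.21e-29). With the cDNA 16 rose and 15 fell (37.3% and 36.3% of all genes), and Pdk2 rose by 4.27. Tigar, a known p53 target in human cells that opposes fructose 2,6-bisphosphate, fell in KPsh cells by 0.53 and was not called with p53WT (-0.13 ± 0.07); it was chosen after its values were seen.

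Hypoxia-response genes outside the members were read beside them because many members are known targets of hypoxia-inducible factors. Pdk1, Egln3 and Ppp1r3c of this list also stand in another list, so the lists are not independent. Off doxycycline in KPsh cells 9 of 19 rose and 6 fell (33.1% and 31.7% of all genes), led by Ddit4 (2.84), Hilpda (1.92) and Loxl2 (1.21). With p53WT 13 of 20 rose and 2 fell (25.5% and 25.1% of all genes). With TAD1m 14 rose and 1 fell (19% and 17.5% of all genes), and with TAD2m 14 rose and 2 fell (24.9% and 24.2% of all genes). Bnip3, a mitophagy receptor, rose with p53WT (1.33), TAD1m (1.25) and TAD2m (1.31). With TAD12m 1 fell, Ddit4 (-0.43), while 3.85% of all genes were called. In the third set 13 of 18 rose off doxycycline in both cells, with 3 falling in sgPcyt2 cells (39.2% higher and 37.1% lower over all genes) and 4 with the cDNA (37.3% and 36.3%). Ndrg1 stood at 156 ± 13.1 CPM off and 9.54 ± 0.585 CPM on doxycycline in sgPcyt2 cells (4.03 ± 0.08, adjusted p = 8.88e-39), with an interaction of 3.27 ± 0.13 (adjusted p = 2.09e-24). Of the regulators, a list that holds the manipulated gene Trp53 itself and the known p53 targets Cdkn1a and Mdm2, 4 of 15 rose and 4 fell in KPsh cells (33.1% and 31.7% of all genes). With p53WT 6 of 16 rose and 1 fell (25.5% and 25.1% of all genes), and in sgPcyt2 cells 10 of 14 rose and 3 fell (39.2% and 37.1% of all genes). Txnip, which restrains glucose uptake and was chosen after its values were seen, rose off doxycycline by 0.37 in KPsh cells, 2.21 in sgPcyt2 cells and 2.43 with the cDNA, and with p53WT by 0.89, TAD1m by 0.53 and TAD2m by 0.75.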

How the data were processed

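RNA was extracted with TRIzol and made into stranded poly(A) libraries, per the labels' protocols. The authors deposited expected counts per gene and library, in steps of 0.5 and without normalization. The tools were STAR 2.6.1c and HOMER and the build mm10, per the submitters' processing notes. Per the file headers HOMER counted exons of 1 transcript per gene (GENCODE vM25) on both strands, so overlapping genes are not separated. The kept transcript of Pgls, Pfkp, Eno2, Ldhb, Rpe and the second row of Aldoa differs between tables. Lengths in the deposited tables gave CPM per kb.

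Counts were rounded (changing no total by more than 0.0533%) and tested within each table with edgeR 4.0.16 (R 4.3.3): filterByExpr, TMM factors, robust quasi-likelihood fits on group means with all groups of a table, and Benjamini-Hochberg adjustment over all genes, called under 0.05. DESeq2 1.42.0 was an alternative. The procedure was tested on simulated data. CPM use TMM-adjusted library sizes, and values are mean ± SD. Exon overlaps were read from GENCODE vM21 (GRCm38) over all transcripts of a gene. Counts came from 1 transcript per gene, so the overlap of the counted bases may differ. Replicates differed by more than sampling noise. Same-numbered libraries did not deviate together in every pair (correlations between -0.173 and 0.354, the highest for TAD12m against vector). The labels do not say that numbers mark a shared culture or day, which the correlations cannot settle, so numbers were not taken as pairs. The members and lists were chosen with earlier results of these data known. Values per library are given for up to 6 called members with the largest change and at least 5 CPM in comparisons with vector or on doxycycline, up to 4 in the others, and for the 2 highest members where none was called; Ldhb, Slc16a1 with TAD12m and Tigar lie outside this rule, and some genes that it names are not reported here. Columns named only by day or by wild-type Pcyt2 were matched to samples by elimination, and doxycycline was assumed in every KPnull library, although the series text is ambiguous.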

Additional observations from a re-analysis of the deposited data

Results flagged for a closer look

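The change on doxycycline withdrawal in sgPcyt2 cells minus that in sgPcyt2+cDNA cells passed the test of the difference (edgeR, adjusted over all genes) for 14 members. It was positive, on the log2 scale, for Aldoc (2.52), Pfkl (0.79), Pfkm (0.41), Rpia (0.40), Pgd (0.34), Slc16a1 (0.32), Slc2a1 (0.23), Gpi1 (0.22) and Pkm (0.19). It was negative for Rpe (-0.34), Pgk1 (-0.25), Pgam1 (-0.22), Ldha (-0.21) and Eno1 (-0.17). The calls of Eno1, Gpi1, Ldha, Pgam1, Pkm and Rpia were each lost in at least 1 alternative.

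For some members all libraries off doxycycline lay on one side of all those on doxycycline, and on the opposite side in unedited KPsh cells, a difference that was not tested. In sgPcyt2 cells these were, as log2 changes off over on doxycycline, Aldoa (-0.53, against 0.28 in KPsh cells), Aldoc (2.24, against -0.48), Slc2a1 (0.07, against -0.32), G6pdx (-1.76, against 0.24), Pgd (0.31, against -0.28) and Rpe (-0.10, against 0.36); the values of Slc2a1 and Rpe in sgPcyt2 cells were not called. In sgPcyt2+cDNA cells they were Aldoa (-0.59) and G6pdx (-1.77). The transcript counted for Rpe differs between the count tables. The calls of Aldoc and Rpe in KPsh cells were each lost in at least 1 alternative. How many of all genes meet the same rule was not counted, so the list does not set the members apart. Of all genes, 64.8% were called in KPsh cells, 76.3% in sgPcyt2 cells and 73.5% in sgPcyt2+cDNA cells. Times, tables and starting levels also differ between the sets.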

How the results depend on the processing

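Over all members, comparisons and other settings, a change kept its side of the threshold in 3838 refits, lost its call in 150 and gained one in 37. Among changes called in the main or the other fit, 0 reversed direction. Changes called in neither fit could change sign and still count among the 3838. Members called for TAD1m against vector fell to 9 without the second TAD1m library. For TAD12m against vector the count of 0 became 1 with no filter on low counts (Taldo1) and 1 under a crossed replicate block added after seeing the data. The replicate block, for numbers that the labels do not state to be pairs, gave 14 members in KPsh cells, 18 for p53WT, 12 for TAD1m, 18 for TAD2m and 0 for TAD12m against vector, 15 and 0 for TAD1m and TAD2m against p53WT, 25 and 24 for withdrawal in sgPcyt2 and sgPcyt2+cDNA cells, 12 and 14 for sgPcyt2 against sgPcyt2+cDNA cells on and off doxycycline, and 14 for the interaction. The crossed block gave 18, 17 and 20 for p53WT, TAD1m and TAD2m against vector, and 17 and 0 for TAD1m and TAD2m against p53WT.

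Leaving out each library gave 12 to 15 called members in KPsh cells, 14 to 18 for p53WT, 9 to 13 for TAD1m, 14 to 20 for TAD2m and 0 to 2 for TAD12m against vector, 11 to 13 for TAD1m and 0 to 0 for TAD2m against p53WT, 24 to 27 for withdrawal in sgPcyt2 cells and 24 to 26 in sgPcyt2+cDNA cells, 11 to 15 for sgPcyt2 against sgPcyt2+cDNA cells on doxycycline and 12 to 14 off it, and 11 to 14 for the interaction. Where a group was left with 1 library, it was assumed to vary like the others. Except where a setting used fewer libraries or another filter, the cause was not tested. Members under 5 CPM in every library (Eno2, Slc16a3, the second row of Aldoa) are limited by depth.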

Other observations

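The hexosamine and glycogen branches, which draw on glucose 6-phosphate and fructose 6-phosphate, moved in part. In KPsh cells off against on doxycycline 1 of 11 tested genes rose and 4 fell (33.1% and 31.7% of all genes), and Gfpt1, which starts hexosamine synthesis, fell by 0.54 (adjusted p = 3.29e-08, edgeR). In the third set Gfpt1 rose off doxycycline, by 0.56 ± 0.04 in sgPcyt2 cells and 0.29 ± 0.04 with the cDNA. With p53WT 4 of 11 rose and 2 fell against vector (25.5% and 25.1% of all genes), and Gys1, the muscle glycogen synthase, rose by 0.58 ± 0.11 (adjusted p = 3.34e-04). With TAD12m Pygb, the brain glycogen phosphorylase, fell by 0.31 (adjusted p = 0.00437).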
